A study of Mus musculus with 8 samples.

Results

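The proximal end of mouse chromosome 19 is densely packed with genes, and the genes described here are the protein-coding genes of the deposited count table that lie on chromosome 19 and start before position 10000000 in the table. Of the 54532 genes in the table, 223 met these limits, and 194 remained after 29 were left out by name (Cpt1a, Lrp5, Tm7sf2, Syvn1, Pcx, Fosl1, Pola2, Ctsf, Ctsw, and names that start with Nduf, Mrpl, Kcnk or Slc). These limits use position and name only, but the region was chosen with earlier results of these data known. The first of the 194 starts at 3260924 and the last at 9985174, in GRCm38 coordinates. Of the 194 genes, 149 (76.8%) had enough counts to be tested.

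RNA-seq had been performed on WT MA-10 cells and on MTP KO MA-10 cells, with 4 libraries per group. MA-10 cells derive from a mouse Leydig tumor and secrete progesterone in response to cAMP. In every library, WT and KO alike, the cells had been cultured for 48 h and then stimulated for 3 h with 0.5 mM 8-BrcAMP, a cell-permeable cAMP analog, so the counts describe stimulated cells only. The KO cells had been made by electroporation with Cas9 and guide RNAs against Mttp and grown from single cells, so the KO group is a clonal line. The study refers to the libraries of a group as biological replicates and to cells plated in triplicate, but does not say which clone was sequenced or how the 4 libraries map to separate cultures. The p-values therefore measure the spread between these libraries.

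Proximal chromosome 19 carries genes with unrelated duties side by side. They include ferritin heavy chain and glutathione transferases for iron and redox balance, cofilin and its regulators for actin turnover, and catalytic subunits and regulators of protein phosphatases. Others encode splicing and mRNA export factors, DNA repair proteins, vesicle traffic proteins, and a few secreted ligands. Neighboring genes lie on the same stretch of DNA, and some start only a short stretch apart from a neighbor read the other way. The comparison asks which of these neighbors moved with the rest of the chromosome between WT and KO cells and which did not.

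Libraries held 14927989 to 18394797 counts. Mttp itself (chromosome 3) fell from 13.1 ± 1.04 CPM (counts scaled to the library size by TMM, mean ± SD, n = 4) in WT to 5.87 ± 1.27 CPM in KO. All 8 libraries carry the wild-type entry as genotype in the labels, so groups follow the titles, and Mttp was lower in all 4 KO libraries than in any WT library. The 6 Leydig markers examined summed to 6544 to 7432 CPM in WT and 7055 to 7795 CPM in KO. That sum was mostly Star (mean 5685 CPM in WT, 5290.02 CPM in KO), while Cyp11a1 was at 625 and 1531 CPM, Insl3 at 28.1 and 68.9, Hsd3b1 at 21.4 and 67.3, Lhcgr at 9.67 and 35.2 and Nr5a1 at 544 and 549. Sertoli markers summed to 228 to 243 CPM in WT and 365 to 409 CPM in KO (4 genes, 3 at or above 1 CPM), with Rhox5 at a mean of 167 and 321 CPM, Sox9 at 54.8 and 53.9, Dhh at 11.4 and 12.7 and Amh at 0.396 and 0.383. The 4 endothelial markers summed to 182 to 210 CPM in WT and 100.3 to 119.5 CPM in KO (2 at or above 1 CPM). Nearly all of that sum was Cdh5 (mean 199.6 CPM in WT, 108.0 CPM in KO), with Kdr at 1.69 and 1.15, Pecam1 at 0.603 and 0.398 and Tek at 0.0158 and 0.0289. The other lists were low in both groups: macrophage markers at 16.4 to 21.4 CPM in WT and 6.47 to 8.98 CPM in KO (4 genes, 2 at or above 1 CPM, Adgre1 and Ptprc at 0), myoid and fibroblast markers at 7.82 to 12.4 CPM and 0.366 to 0.578 CPM (4 genes, 1 at or above 1 CPM, Dcn at 0), and germ cell markers at 1.89 to 4.53 CPM and 3.51 to 5.97 CPM (4 genes, 1 at or above 1 CPM). The part of these differences in the results below was not tested, and in bulk RNA a different share of cells and a different amount of RNA per cell cannot be told apart.

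Most genes of proximal chromosome 19 were higher in KO than in WT cells. The 149 tested genes had a median log2 fold change (KO minus WT) of 0.46, a 1.37-fold difference, with quartiles of 0.30 and 0.58. The whole of chromosome 19 (446 tested genes of every kind) had a median of 0.51, or 1.43-fold, which is called the shift of the chromosome in what follows. The protein-coding genes of the same chromosome that start at 10 Mb or beyond (254 tested) had a median of 0.58, with quartiles of 0.38 and 0.76. Genes off chromosomes 3 and 19 had a median of -0.001.

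By edgeR at an adjusted p below 0.05 over all 13185 tested genes, 119 of the 149 genes were higher in KO, 10 were lower and 20 were called neither way. Over all tested genes, 42.7% were called, 21.7% higher and 21.1% lower. With an absolute log2 fold change above 0.5 also required, 56 of the 149 were higher and 6 lower, against 7.35% and 8.44% of all tested genes. In 114 of the 149 genes all 4 KO libraries had more CPM than any WT library, a pattern found in 19.7% of all tested genes. In 7 genes all 4 KO libraries had less (18.9% of all tested genes), and in the other 28 the groups overlapped.

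The shift was seen in each KO library. The 194 genes together took 1.16% to 1.19% of all counts in the WT libraries and 1.48% to 1.56% in the KO libraries. Relative to the WT mean of each gene, the median log2 level of the 149 tested genes was 0.414, 0.472, 0.408 and 0.420 in KO libraries 1 to 4, and lay between -0.00492 and 0.0237 in the WT libraries. The distal protein-coding genes had medians of 0.554, 0.551, 0.550 and 0.539 in the same KO libraries. In every KO library the proximal median was thus below the distal one. No test of that difference was made, because the genes are not replicates.

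**Figure D1:**
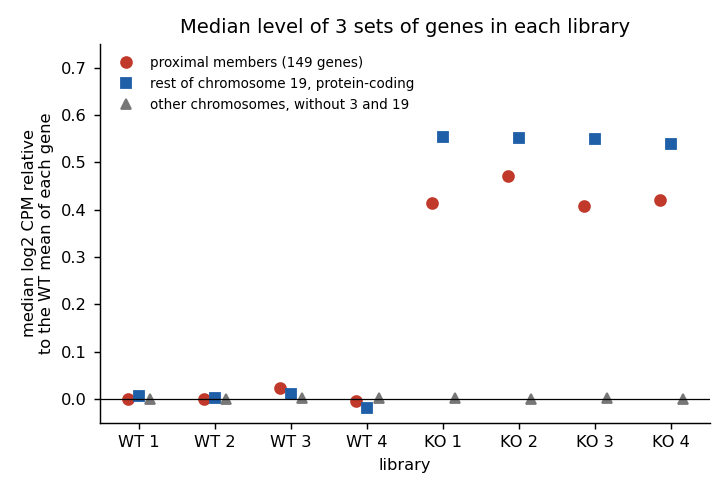
Median log2 CPM of 3 sets of genes in each of the 8 libraries, relative to the WT mean of each gene (y axis, log2 units; 1 point per set and library). The 149 tested proximal genes lie between 0.408 and 0.472 in the KO libraries, the distal protein-coding genes of chromosome 19 between 0.539 and 0.554, and genes off chromosomes 3 and 19 stay near 0.

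To separate genes that moved with the chromosome from genes that did not, the fit was repeated with the shift of 0.51 as the null value for all genes of chromosome 19. The centred value of a gene is its log2 fold change minus that shift. Of the 149 genes, 13 (8.72%) were called above the shift and 42 (28.2%) below it, and 94 (63.1%) were not separated from it. The same fit called 19.6% of all 13185 genes above its null value and 21.4% below. Among the tested genes of chromosome 19 alone, 20.6% were called above and 22% below. Of the 254 distal protein-coding genes, 75 were above, 45 below and 134 not separated.

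The 149 genes thus fell into 6 groups. Of the 119 higher genes, 81 were not separated from the shift, 25 rose but by less than the shift, and 13 rose by more. The 10 lower genes were all below the shift. Of the 20 genes called neither way, 7 were below the shift, and 13 were separated neither from 0 nor from the shift. A gene that is not separated is not thereby shown to follow the chromosome. For 52 of the 149 genes the whole 95% interval of the centred value lay within 0.25 of the shift.

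**Figure D2:**
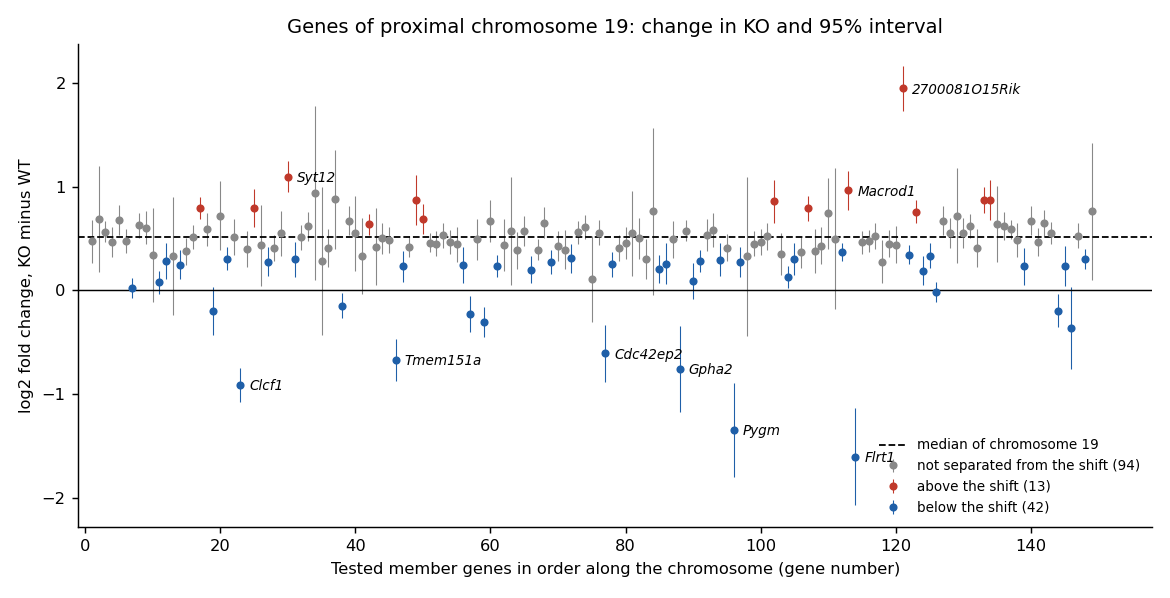
Log2 fold change (KO minus WT) of the 149 tested genes in their order along the chromosome, with 95% intervals (vertical lines). Most points gather around the dashed line, the median of chromosome 19 at 0.51 while 13 genes in red were called above it and 42 in blue below it, and the named genes at the bottom were lower in KO.

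The gene farthest above the shift was 2700081O15Rik, a gene with no assigned function in the table (chr19:7417625-7425904). It had 7.404, 5.7003, 6.32 and 5.36 CPM in WT replicates 1 to 4, against 23.7, 23.5, 23.6 and 25.2 CPM in KO replicates 1 to 4. All 4 KO libraries lay far above the WT libraries. Its mean rose from 6.198 ± 0.897 to 23.97 ± 0.7999 CPM (mean ± SD, n = 4). The log2 fold change was 1.95 (SE 0.102, edgeR adjusted p = 4.28e-10), and its centred value was 1.44 (adjusted p = 1.51e-08). Its end overlaps by a few bases the end of Rtn3, a far more abundant gene on the opposite strand that encodes a reticulon of the ER. Rtn3 rose from 333 ± 9.54 to 422 ± 12.7 CPM, a log2 fold change of 0.34 that was below the shift (centred -0.17, adjusted p = 0.00568). The strand setting of the counting is not given, so reads at the shared end cannot be told apart.

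Syt12, which encodes a synaptotagmin of secretory vesicles, was second (chr19:4445908-4477447). It had 25.8, 29.1, 24.8 and 23.8 CPM in WT replicates 1 to 4, against 52.2, 60.3, 53.2 and 55.9 CPM in KO replicates 1 to 4. Every KO library held at least 52.2 CPM, while the highest WT library held 29.1 CPM. On the log2 scale the fold change was 1.10 (SE 0.0716, edgeR adjusted p = 6.30e-09) and the centred value 0.58 (95% interval 0.43 to 0.74, adjusted p = 8.05e-06). Only 2 of the 149, Syt12 and 2700081O15Rik, were called above the shift by more than 0.5, against 5.9% of all tested genes above their null value. Below the shift by more than 0.5 were 13 of the 149, against 8.62% of all tested genes.

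Macrod1, which encodes a mitochondrial enzyme that removes ADP-ribose from proteins, had 12.2, 11.2, 13.8 and 11.7 CPM in WT replicates 1 to 4, against 24.5, 26.2, 22.5 and 22.4 CPM in KO replicates 1 to 4. The groups did not overlap, and its log2 fold change was 0.97 (SE 0.0876, edgeR adjusted p = 2.66e-07), 0.45 above the shift (adjusted p = 0.000617). Flrt1 lies within Macrod1 on the opposite strand and moved the other way, as described below. Uqcc3, an assembly factor of respiratory chain complex III, rose from 9.61 ± 0.702 to 17.6 ± 1.19 CPM (0.36 above the shift, adjusted p = 0.00523).

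Ubxn1, an adaptor of the p97 ATPase that handles ubiquitinated proteins, had 83.3, 85.04, 89.8 and 95.1 CPM in WT replicates 1 to 4, against 171, 169.7, 157 and 149 CPM in KO replicates 1 to 4. All KO libraries exceeded all WT libraries, and its log2 fold change of 0.87 (SE 0.0586) was 0.36 above the shift (edgeR adjusted p = 0.000139). Gpr137, a membrane protein related to G protein-coupled receptors, rose from 10.03 ± 0.727 to 18.1 ± 1.86 CPM (0.35 above, adjusted p = 0.00974). Its annotated span overlaps that of Bad, the BCL2-binding cell death protein, which rose with a log2 fold change of 0.35 and was not separated from the shift (centred -0.16, edgeR adjusted p = 0.185).

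Another 5 genes above the shift were Klc2, Coro1b, Ssh3, Atl3 and Pacs1. Klc2, a light chain of the kinesin motor, rose from 7.43 ± 1.12 to 13.6 ± 0.999 CPM (0.36 above, edgeR adjusted p = 0.01897). Coro1b, a coronin that acts on branched actin, rose from 149 ± 6.03 to 259 ± 11.4 CPM (0.28 above, adjusted p = 0.000278), and Ssh3, a slingshot family phosphatase, from 11.1 ± 0.825 to 19.3 ± 0.913 CPM (0.28 above, adjusted p = 0.0141). Atl3, a GTPase that shapes ER tubules, rose from 144 ± 6.48 to 244 ± 14.02 CPM (0.25 above, adjusted p = 0.00139). Pacs1, a sorting protein of the trans-Golgi network named here only to complete the count, had a centred value of 0.18 (adjusted p = 0.0443).

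The remaining genes above the shift were Vegfb, a ligand of VEGF receptor 1, and Dpp3, a dipeptidyl peptidase. Vegfb had 41.2, 37.98, 38.7 and 36.3 CPM in WT replicates 1 to 4, against 65.9, 69.4, 66.9 and 64.7 CPM in KO replicates 1 to 4, with a centred value of 0.28 (edgeR adjusted p = 0.000977). Dpp3 rose from 89.99 ± 3.41 to 139.8 ± 2.01 CPM, but its centred value was only 0.12 (adjusted p = 0.0464). The call for Dpp3 was lost in 7 of 8 fits that each left out 1 library (all but WT replicate 4), at adjusted p of 0.0580 to 0.156. The call for Klc2 was lost without WT replicate 3, WT replicate 4 or KO replicate 2 (adjusted p of 0.0523 to 0.0587), and that for Ssh3 without WT replicate 3 (adjusted p = 0.0602).

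At the other end of the range, 10 genes were lower in KO than in WT cells although the chromosome around them was higher. The largest difference belonged to Flrt1, a transmembrane adhesion protein and ligand with leucine-rich repeats (chr19:7092014-7105729). It had 7.16, 5.77, 7.24 and 4.29 CPM in WT replicates 1 to 4, against 2.72, 1.42, 1.96 and 1.89 CPM in KO replicates 1 to 4. The lowest WT library was still above the highest KO library. Its mean fell from 6.11 ± 1.39 to 1.995 ± 0.538 CPM. The log2 fold change was -1.60 (SE 0.219, edgeR adjusted p = 1.80e-05), or -2.11 relative to the shift. Flrt1 sits inside the span of Macrod1, which rose. The listed gene length is 1274 bases for Macrod1, far less than its span, and 5859 bases for Flrt1. Whether counted bases of the pair overlap was not examined, and the strand setting is not given.

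Clcf1, which encodes a cytokine of the interleukin-6 family, was the most abundant of the genes that fell by more than 0.5 (chr19:4214238-4223490). It had 45.6, 45.3, 39.1 and 38.5 CPM in WT replicates 1 to 4, against 23.98, 23.9, 21.2 and 20.7 CPM in KO replicates 1 to 4. The groups were well apart. The mean fell from 42.1 ± 3.84 to 22.4 ± 1.73 CPM. The log2 fold change was -0.91 (SE 0.0777, edgeR adjusted p = 1.41e-07), and the centred value was -1.42 (adjusted p = 1.09e-09).

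Pygm encodes the muscle isoform of glycogen phosphorylase (chr19:6384399-6398459). It had 3.79, 3.71, 3.19 and 2.65 CPM in WT replicates 1 to 4, against 1.39, 1.08, 1.52 and 1.22 CPM in KO replicates 1 to 4. These are low levels, but the highest KO library was below the lowest WT library. The log2 fold change was -1.34 (SE 0.213, edgeR adjusted p = 7.90e-05) and the centred value -1.86. The sequence before its start is shown because Pygm had the largest fall among genes with a RefSeq promoter (chr19:6384158-6384398, plus strand, GRCm38.p6, ending 1 base before the start in the table). It held none of the 4 motifs described further on, so it has no capitals.

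Pygm: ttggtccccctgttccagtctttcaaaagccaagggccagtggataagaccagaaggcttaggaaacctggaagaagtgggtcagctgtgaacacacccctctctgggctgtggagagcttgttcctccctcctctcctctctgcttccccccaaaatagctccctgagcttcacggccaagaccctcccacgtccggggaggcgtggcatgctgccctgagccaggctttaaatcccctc

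Smaller falls were measured for genes of membrane, actin and secreted proteins. Tmem151a, a membrane protein, had 23.5, 22.8, 24.8 and 19.4 CPM in WT replicates 1 to 4, against 12.7, 16.1, 13.9 and 14.3 CPM in KO replicates 1 to 4. Cdc42ep2, an effector of the small GTPase Cdc42 that shapes actin, had 9.18, 8.82, 8.48 and 6.81 CPM in WT replicates 1 to 4, against 4.91, 5.86, 5.66 and 5.42 CPM in KO replicates 1 to 4. In both genes the groups did not overlap, and the log2 fold changes were -0.67 (SE 0.0947, edgeR adjusted p = 3.10e-05) for Tmem151a and -0.61 (SE 0.128, adjusted p = 0.00117) for Cdc42ep2. Gpha2, a subunit of the glycoprotein hormone thyrostimulin, is named to complete the count and fell from 2.68 ± 0.214 to 1.59 ± 0.133 CPM (on the log2 scale -0.75, SE 0.195, adjusted p = 0.00495). Its end overlaps that of the more abundant Ppp2r5b, which rose by a log2 fold change of 0.57.

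Efemp2, which encodes the elastic fiber protein fibulin-4, had 51.1, 59.1, 57.3 and 63.5 CPM in WT replicates 1 to 4, against 47.3, 49.7, 46.9 and 42.96 CPM in KO replicates 1 to 4. The groups were apart, with a log2 fold change of -0.31 (SE 0.0696, edgeR adjusted p = 0.00213). The last 3 lower genes were close to the threshold. Ccdc85b, a coiled-coil protein, had a log2 fold change of -0.23 (adjusted p = 0.0314), the giant scaffold protein gene Ahnak one of -0.20 (adjusted p = 0.0434), and Rbm14, an RNA-binding coactivator, one of -0.15 (adjusted p = 0.0454). In each of these 3 the WT and KO libraries overlapped. Ahnak was lost without WT replicate 1, WT replicate 2, KO replicate 1, KO replicate 2 or KO replicate 3 (adjusted p of 0.0725 to 0.146), and its log2 fold change was -0.11 without WT replicate 1. Ccdc85b (adjusted p of 0.0595 to 0.117) and Rbm14 (0.0864 to 0.135) were lost without any 1 of the same 5 libraries and also without WT replicate 3. All 3 remained below the shift in every one of these fits.

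**Figure D3:**
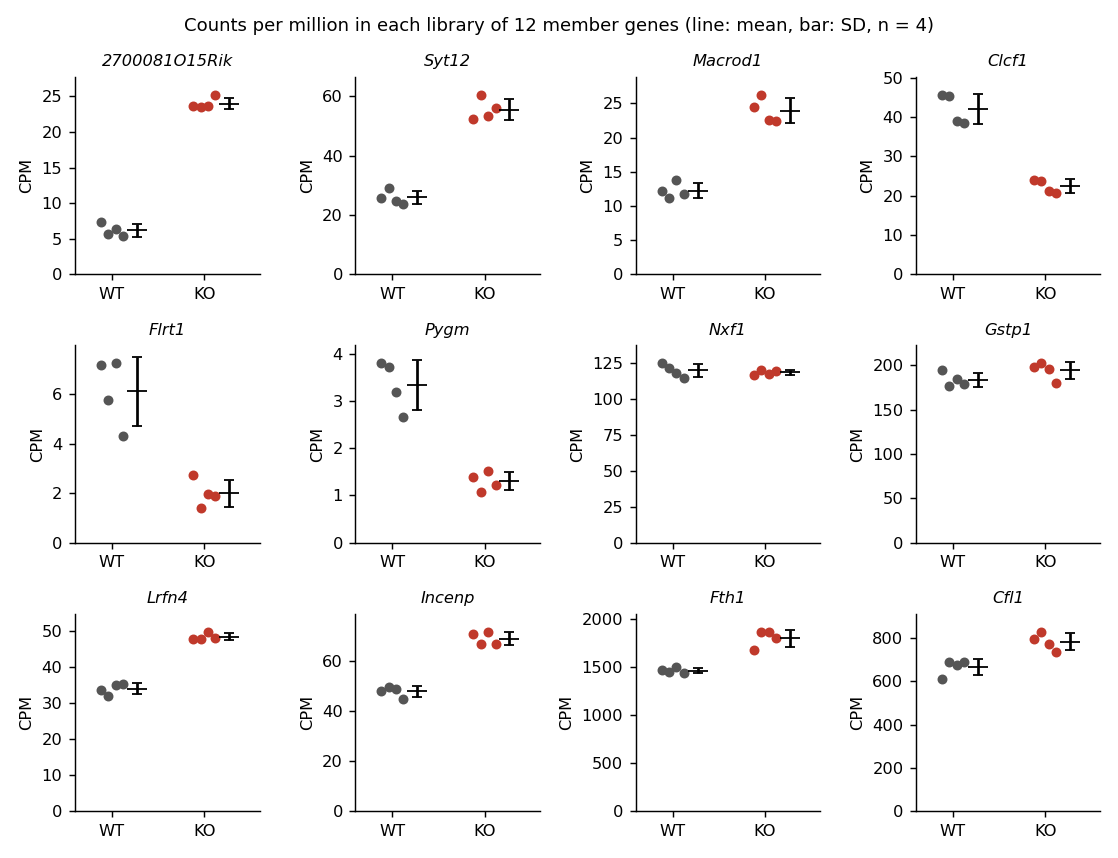
CPM of 12 genes in each library (points), with the mean and SD of each group (line and bar, n = 4); every y axis starts at 0. 2700081O15Rik, Syt12 and Macrod1 rose by more than the shift, Clcf1, Flrt1 and Pygm fell, the groups of Nxf1 and Gstp1 overlap, and Lrfn4, Incenp, Fth1 and Cfl1 rose, the first pair by nearly the shift and Fth1 and Cfl1 by less.

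Another 7 genes were called neither higher nor lower in KO and were called below the shift. A missed call does not show that a gene kept its WT level, and their log2 fold changes ran from -0.36 to 0.13. These genes are named because they make up the whole group, and were chosen after their values were seen. Nxf1, the main export receptor of mRNA, had 125, 122, 118 and 114 CPM in WT replicates 1 to 4, against 116, 120.1, 117 and 119 CPM in KO replicates 1 to 4. The KO libraries lay within the range of the WT libraries. Its log2 fold change was -0.02 (SE 0.0467, edgeR adjusted p = 0.812), and the 95% interval of its centred value, -0.63 to -0.43, did not reach the shift.

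Tcirg1, a membrane subunit of the vacuolar proton pump, had 136, 137, 131 and 137 CPM in WT replicates 1 to 4, against 133, 144, 139 and 134 CPM in KO replicates 1 to 4. These ranges overlapped almost fully (log2 fold change 0.02, SE 0.0464, centred interval -0.59 to -0.39). Gstp1, a pi-class glutathione transferase, had 195, 177, 185 and 179 CPM in WT replicates 1 to 4, against 199, 202, 196 and 180.05 CPM in KO replicates 1 to 4. Gstp1 had a log2 fold change of 0.08 (SE 0.0511) and the centred interval -0.54 to -0.33. The adjacent Gstp2 rose by 0.29 (edgeR adjusted p = 0.00945), also below the shift, and Gstp3 had 0.33 at about 1 CPM. The Gstp copies are nearly identical, so reads may have been split between them.

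The other 4 were Atg2a, a lipid transfer protein of autophagosomes, Plcb3, a phospholipase C activated by G proteins, Carns1, which makes carnosine, and Pcna-ps2. Plcb3 had 98.3, 103, 106 and 97.6 CPM in WT replicates 1 to 4, against 111, 116, 112 and 104 CPM in KO replicates 1 to 4, and its log2 fold change of 0.13 missed the threshold narrowly (edgeR adjusted p = 0.0513). The log2 fold changes of Atg2a and Carns1 were 0.09 and -0.20 (adjusted p = 0.405 and 0.166). Pcna-ps2, a near-identical copy of Pcna that the table lists as protein-coding, had -0.36 (adjusted p = 0.134), and its counts are uncertain because reads may belong to Pcna.

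In between stood 25 genes that rose, but by less than the chromosome, with log2 fold changes of 0.19 to 0.37. They included some of the most abundant transcripts of the region. Fth1, the ferritin heavy chain that stores and oxidizes iron, had 1468, 1451, 1496 and 1440.2 CPM in WT replicates 1 to 4, against 1679, 1871, 1862 and 1801 CPM in KO replicates 1 to 4. Every KO library was above every WT library, and the log2 fold change was 0.30 (SE 0.0441, edgeR adjusted p = 4.48e-05), -0.21 relative to the shift (adjusted p = 0.00116).

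Cfl1, the actin-severing protein cofilin, had 612, 688, 675 and 688 CPM in WT replicates 1 to 4, against 794, 831, 773 and 736 CPM in KO replicates 1 to 4. Its log2 fold change was 0.24 (SE 0.05103) and the centred value -0.28 (edgeR adjusted p = 0.000417). Ppp1ca, a catalytic subunit of protein phosphatase 1, rose from 496 ± 28.05 to 614 ± 33.6 CPM (centred -0.21, adjusted p = 0.004998). Stip1, the cochaperone that links Hsp70 and Hsp90, rose from 399 ± 8.36 to 515 ± 8.17 CPM (centred -0.14, adjusted p = 0.0104).

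At lower levels, 3 genes with centred values among the most negative were Sac3d1, Yif1a and Rom1. Sac3d1, a centrosome-associated protein, rose from 32.3 ± 2.06 to 37.1 ± 1.17 CPM (centred -0.31, edgeR adjusted p = 0.000911). Yif1a, which acts in transport between ER and Golgi, rose from 24.9 ± 0.898 to 29.2 ± 2.31 CPM (centred -0.28, adjusted p = 0.00448), a rise that was lost without KO replicate 1 (adjusted p = 0.0539). Rom1, best known from the photoreceptor outer segment, rose from 13.5 ± 0.712 to 15.9 ± 1.002 CPM (centred -0.28, adjusted p = 0.0147). The rise of Rom1 was lost without any 1 of WT replicates 2, 3 and 4 and KO replicates 1, 3 and 4 (adjusted p of 0.0520 to 0.0980).

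The genes closest to the shift were taken from the called genes with the centred value nearest to 0 among genes with a small SE. Their rise in KO cells and their intervals around the shift follow from that choice. Lrfn4, a synaptic adhesion protein, had 33.8, 31.9, 35.1 and 35.4 CPM in WT replicates 1 to 4, against 47.97, 47.9, 49.98 and 48.3 CPM in KO replicates 1 to 4. No KO library reached down to the WT range, and the centred value was -0.00 (95% interval -0.12 to 0.12). Its annotated span overlaps that of Pcx, one of the genes left out by name.

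Esrra, the nuclear receptor that drives mitochondrial genes, rose from 28.1 ± 1.46 to 40.4 ± 1.51 CPM (log2 fold change 0.52, centred interval -0.12 to 0.14). The acetyltransferase gene Naa40 rose from 45.03 ± 0.741 to 64.8 ± 4.57 CPM (0.53, -0.11 to 0.14). Incenp, the inner centromere scaffold of the Aurora B complex, had 48.2, 49.6, 49.1 and 44.99 CPM in WT replicates 1 to 4, against 70.9, 66.9, 72.03 and 66.9 CPM in KO replicates 1 to 4 (log2 fold change 0.53, centred interval -0.10 to 0.13). Among abundant genes, the translation factor gene Eef1g rose from 421 ± 25.1 to 618 ± 26.1 CPM (centred interval -0.07 to 0.15) and Fau, which encodes ribosomal protein S30, from 362 ± 29.5 to 480.4 ± 29.6 CPM (centred interval -0.23 to 0.03). Fau was called below the shift without WT replicate 1 (centred -0.16, edgeR adjusted p = 0.0250) and with the median of the distal genes as null value (centred -0.17, adjusted p = 0.0356).

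The genes were also sorted by the duties of their proteins. Genes could stand in more than 1 list, and the lists were drawn up with earlier results of these data known. The lists were made by hand, so some genes of a like duty stand in none of them. Over all 149 tested genes, 79.9% rose, 6.71% fell, 13 were above the shift, 42 below and 94 not separated. No difference between a list and the other genes was tested. All 8 tested genes of DNA replication, repair and chromosome segregation rose, and by edgeR, DESeq2 and limma 0 of them were separated from the shift in either direction. At an unadjusted p under 0.05, 0 were above it and 1 (Cdca5) below it with each tool. Their median log2 fold change was 0.46, as over the 149 genes together. Rad9a, a subunit of the checkpoint clamp, rose from 16.3 ± 0.749 to 23.3 ± 2.23 CPM (log2 fold change 0.51), and Mus81, a structure-specific nuclease, from 9.25 ± 0.386 to 14.7 ± 1.399 CPM (0.67). Otub1 (log2 fold change 0.46), Pold4 (0.40), Rnaseh2c (0.38) and Cdca5 (0.30), with Incenp and Banf1, completed this list. Banf1, which binds DNA at the nuclear envelope, rose from 134 ± 7.78 to 183 ± 10.8 CPM (0.45).

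Of 17 tested transcription and chromatin genes, 16 rose and 0 fell, with 2 below the shift and 15 not separated (median 0.47). The number that fell was also 0 at an unadjusted p under 0.05 and by DESeq2 and limma. Kmt5b, a histone H4 methyltransferase, rose from 30.003 ± 2.77 to 48.01 ± 0.9801 CPM (log2 fold change 0.68, edgeR adjusted p = 7.73e-07), Ints5, an Integrator subunit, from 34.3 ± 1.33 to 52.7 ± 3.75 CPM (0.62, adjusted p = 1.01e-06), and Zbtb3, a zinc finger gene, from 1.99 ± 0.47998 to 3.31 ± 0.643 CPM (0.72, adjusted p = 0.0132). The 2 below the shift were Rela, the p65 subunit of NF-kB, with a log2 fold change of 0.20, and Cdk2ap2, with 0.25. Without WT replicate 1, Kmt5b was called above the shift (centred 0.19, adjusted p = 0.0443).

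Of 15 tested genes of splicing, export and RNA modification, 13 rose and 1 fell, with 2 below the shift (Nxf1 and Rbm14) and 13 not separated. The list also holds the translation factor gene Eef1g. Tut1, which adds nucleotides to the U6 snRNA, rose from 26.6 ± 1.07 to 41.7 ± 1.97 CPM (log2 fold change 0.65), and Trpt1, a tRNA phosphotransferase, from 3.57 ± 0.759 to 5.97 ± 0.338 CPM (0.74). Rbm4 rose from 1.85 ± 0.476 to 3.41 ± 0.607 CPM (0.88), whereas its neighbor Rbm14 fell. The table also lists Gm21992, which spans both genes, so reads of this stretch may have been split.

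Genes in the list of protein folding and glycosylation all rose (8 of 8 tested, median 0.49). This list also holds the peptidase gene Dpp3. Ganab, the catalytic subunit of ER glucosidase II, had 181, 181, 179 and 180.2 CPM in WT replicates 1 to 4, against 269, 277, 267 and 271 CPM in KO replicates 1 to 4. Replicates of this gene were very close to each other, and its log2 fold change was 0.59 (SE 0.0415, centred interval -0.01 to 0.16). Of this list, Dpp3 was above the shift, Stip1 below it and 6 were not separated.

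Of 11 tested genes of the actin cytoskeleton and adhesion, 6 rose and 4 fell (Flrt1, Cdc42ep2, Efemp2 and Ahnak), and 9 of the 11 were separated from the shift, 2 above and 7 below. Their median log2 fold change was 0.25. Above were Coro1b and Ssh3, and below, beside the 4 that fell, were Cfl1, Capn1 (0.25) and Ltbp3. The fall of Ahnak and the calls of Ssh3 and Ltbp3 against the shift were lost in some fits that left out 1 library. Of 14 tested kinase, phosphatase and G protein regulator genes, 12 rose and 0 fell, with 1 above the shift, 7 below and 6 not separated (median 0.35). At an unadjusted p under 0.05, and by DESeq2 and limma, 0 of them fell as well. Ppp6r3, a regulatory subunit of protein phosphatase 6, rose from 137 ± 5.45 to 203 ± 8.29 CPM (log2 fold change 0.57), and Rps6kb2, an S6 kinase, from 14.1 ± 0.538 to 21.3 ± 0.891 CPM (0.59). Neither was separated from the shift. Map3k11, Grk2, Map4k2, Rps6ka4, Ppp1r14b, Ppp1ca and Plcb3 were the 7 below. The list leaves out Ppp2r5b, a phosphatase 2 regulatory subunit, Cdc42bpg, a CDC42-binding kinase, and Tbc1d10c, a TBC1 domain gene. Each of these rose without being separated from the shift (log2 fold changes 0.57, 0.53 and 0.72).

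Of 18 tested genes of membrane traffic and autophagy, 15 rose and 0 fell, with 4 above the shift (Syt12, Klc2, Pacs1 and Atl3), 7 below and 7 not separated. By DESeq2, by limma and at an unadjusted p under 0.05, 0 of the 18 fell. Of 7 tested genes of glutathione, redox and iron, 5 rose, and 3 were below the shift (Fth1, Gstp1 and Gstp2). Aldh3b1, an aldehyde dehydrogenase, rose from 115 ± 5.11 to 177 ± 12.5 CPM (log2 fold change 0.63), Ccs, the copper chaperone of superoxide dismutase, from 21.2 ± 0.102 to 33.8 ± 2.07 CPM (0.67), and Prdx5, a peroxiredoxin, from 82.9 ± 4.895 to 113 ± 6.64 CPM (0.45). Without KO replicate 4, Ccs and Aldh3b1 were called above the shift (centred 0.20 and 0.16, edgeR adjusted p = 0.0333 and 0.0435).

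All 4 tested genes of lipid metabolism rose. Chka, the first enzyme of phosphatidylcholine synthesis from choline, rose from 129 ± 5.73 to 179 ± 10.3 CPM (on the log2 scale 0.48, SE 0.0534, edgeR adjusted p = 2.75e-06). Pitpnm1, a phosphatidylinositol transfer protein, rose from 159.8 ± 13.9 to 208 ± 9.46 CPM (0.38, SE 0.0609), and Bscl2, the lipid droplet protein seipin, from 53.5 ± 8.16 to 71.02 ± 3.55 CPM (0.41, SE 0.0871). These 3 were not separated from the shift, and the phospholipase gene Pla2g16 was below it (log2 fold change 0.19, centred -0.32). Without WT replicate 4, Pitpnm1 was called below the shift (centred -0.20, edgeR adjusted p = 0.00634), and Bscl2 was so without WT replicate 1 (centred -0.20, adjusted p = 0.02002). Of 7 tested mitochondrial and metabolic genes, 5 rose and 1 fell (Pygm), with Macrod1 and Uqcc3 above the shift. Cox8a, a subunit of cytochrome c oxidase, rose from 202 ± 6.25 to 280.4 ± 15.8 CPM (0.47, centred interval -0.15 to 0.07).

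In the list of secreted growth factors and ligands, every tested gene departed from the shift. The list holds the transmembrane protein Flrt1 and the binding protein Ltbp3, and leaves out the hormone subunit gene Gpha2, which fell. Of 4 tested, Clcf1 and Flrt1 fell, Vegfb rose by more than the shift, and Ltbp3, a binding protein of latent TGF-beta, rose by less, from 125 ± 11.95 to 155 ± 9.505 CPM (centred -0.20, edgeR adjusted p = 0.0233). The call for Ltbp3 against the shift was lost without WT replicate 2, KO replicate 1 or KO replicate 3 (adjusted p of 0.0573 to 0.0874). With only 4 genes, nothing is read from this list as a whole. Of genes named for other tissues, 2 of 5 blood and immune genes and 5 of 12 genes of neurons, muscle and sperm could be tested. Unc93b1, which carries Toll-like receptors to endosomes, rose from 21.4 ± 1.26 to 32.5 ± 2.71 CPM (log2 fold change 0.61). Tesmin, a gene of the male germ line, had 1.72 ± 0.423 in WT and 2.76 ± 0.662 CPM in KO (0.68, adjusted p = 0.0296), a rise that was lost without WT replicate 3, KO replicate 3 or KO replicate 4 (adjusted p of 0.0513 to 0.122).

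**Figure D4:**
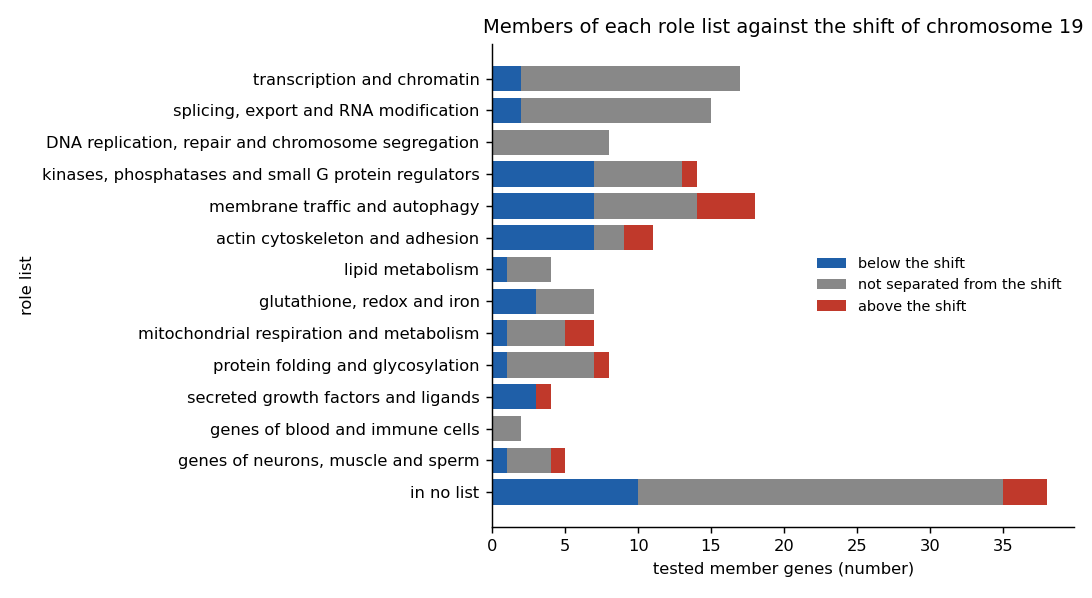
Number of tested genes in each role list that were called below the shift of chromosome 19 (blue), not separated from it (gray) or above it (red); the last bar holds genes in no list. All 8 genes of DNA replication and repair were not separated, while 9 of 11 actin and adhesion genes were separated in one direction or the other.

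The step was present along the whole of the region. In windows of 1 Mb by gene start, the median log2 fold change was 0.52 between 3 and 4 Mb (10 tested genes), 0.42 between 4 and 5 Mb (33), 0.43 between 5 and 6 Mb (35), 0.41 between 6 and 7 Mb (33), 0.45 between 7 and 8 Mb (13) and 0.57 between 8 and 9 Mb (20). In the last window, 9 to 10 Mb, it was 0.30 over only 5 genes. Genes below the shift were found in each window, and genes above it in the 5 windows between 4 and 9 Mb. Windows of 10 Mb farther along the chromosome had medians of 0.66, 0.58, 0.55, 0.60, 0.52 and 0.48.

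The start limit of 10 Mb falls between neighbors that are themselves unlike. Just inside were Fth1, described above, and Best1, an anion channel best known from the retinal pigment epithelium, which had 1.41, 0.5303, 0.978 and 0.946 CPM in WT replicates 1 to 4, against 1.39, 1.89, 2.18 and 1.16 CPM in KO replicates 1 to 4 (log2 fold change 0.76, SE 0.311, not called). Best1 was called higher without WT replicate 1 or KO replicate 4 (log2 fold change 1.01 and 0.90, edgeR adjusted p = 0.0219 and 0.0338). Just outside were Rab3il1, an exchange factor of Rab3, with a log2 fold change of 0.61 (SE 0.0695), and Fads3, of the fatty acid desaturase family, with 1.35 (SE 0.129).

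Neither abundance nor gene length ordered the changes. Across the 149 genes, log2 fold change and log2 mean CPM had a Pearson r of 0.0429 and a Spearman rho of -0.109, and log2 fold change and log2 gene length had 0.0424 and 0.0658. These are descriptions across genes of the same 8 libraries, and genes are not independent replicates. Genes below the shift had a median level of 50.6 CPM, those above 40.6 CPM and those not separated 31.4 CPM. Of the 149 genes, 33 overlap another tested gene in position. Without them, 93 were higher, 7 lower, 10 above and 34 below the shift.

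Some neighboring genes of the region are head to head, that is, read in opposite directions with their start sites next to each other. Of 148 pairs of neighboring tested genes, 9 are head to head with starts within 1 kb. The spans of Prdx5 and Trmt112 and of Gpr137 and Bad overlap, and a stretch of DNA lies between the starts of the others. The share of such pairs elsewhere in the genome was not computed. The absolute difference in log2 fold change between the genes of a pair had a median of 0.200 over these 9 pairs and of 0.218 over all 148 neighbors. The stretches between the start sites of 3 pairs are printed below, from RefSeq promoters of GRCm38.p6 on the plus strand. They belong to a pair whose ratio did not separate WT from KO (Banf1 and Eif1ad, chr19:5366646-5366812) and to both pairs without overlapping genes whose ratio did (Pcnx3 and Map3k11, chr19:5688909-5689130, and Rom1 and Eml3, chr19:8929357-8929551). In each, the first gene is read leftward and the second rightward, and capitals mark the GC box GGGCGG on either strand.

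Banf1-Eif1ad: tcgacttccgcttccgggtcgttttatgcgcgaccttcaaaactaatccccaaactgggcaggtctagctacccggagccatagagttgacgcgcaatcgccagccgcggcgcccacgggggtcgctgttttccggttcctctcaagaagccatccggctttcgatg
Pcnx3-Map3k11: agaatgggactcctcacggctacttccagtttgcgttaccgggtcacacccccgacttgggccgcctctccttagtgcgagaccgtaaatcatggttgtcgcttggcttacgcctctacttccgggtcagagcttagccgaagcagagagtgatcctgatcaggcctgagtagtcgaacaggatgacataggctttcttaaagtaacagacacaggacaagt
Rom1-Eml3: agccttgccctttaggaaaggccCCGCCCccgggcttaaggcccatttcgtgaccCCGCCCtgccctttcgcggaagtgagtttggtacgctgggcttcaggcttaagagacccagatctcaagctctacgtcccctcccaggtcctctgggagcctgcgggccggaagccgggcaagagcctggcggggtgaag

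Banf1 and Eif1ad, a gene named for a domain of translation factor eIF1A, rose together, by log2 fold changes of 0.45 and 0.53. The log2 ratio of Eif1ad to Banf1 was -1.17, -1.23, -1.37 and -1.39 in WT replicates 1 to 4, against -1.11, -1.303, -1.23 and -1.18 in KO replicates 1 to 4. The groups overlapped. The KO minus WT difference of the ratio was 0.0817 (exact permutation test, 2-sided, p = 0.286). Hnrnpul2 and Ttc9c, 68 bases apart, rose by 0.62 and 0.56, and their ratio also overlapped between groups (exact p = 0.543).

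Pcnx3, a multi-pass membrane protein, and Map3k11, a kinase upstream of JNK, face each other across 223 bases and rose by 0.65 and 0.28. The log2 ratio of Map3k11 to Pcnx3 was -0.373, -0.172, -0.0967 and -0.0458 in WT replicates 1 to 4, against -0.394, -0.574, -0.612 and -0.632 in KO replicates 1 to 4. No KO library reached the WT range, and the mean ratio differed by -0.381 (exact permutation test, 2-sided, p = 0.0286, the smallest p that 4 against 4 libraries allow). Rom1 and Eml3, a microtubule-binding protein, lie 196 bases apart and rose by 0.23 and 0.67. The log2 ratio of Eml3 to Rom1 was 1.36, 1.52, 1.64 and 1.34 in WT replicates 1 to 4, against 1.81, 2.16, 1.85 and 1.81 in KO replicates 1 to 4, with no overlap and a difference of 0.442 (exact p = 0.0286). Gpr137 and Bad, whose spans overlap, differed by -0.502 in the ratio of Bad to Gpr137 (exact p = 0.0286).

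In the other 4 pairs the libraries overlapped (exact p of 0.0857 to 0.8). Benjamini-Hochberg adjustment over the 9 pairs gave the 3 pairs without overlap an exact permutation p of 0.0857, so none passed 0.05. This test was chosen after seeing the data.

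**Figure D5:**
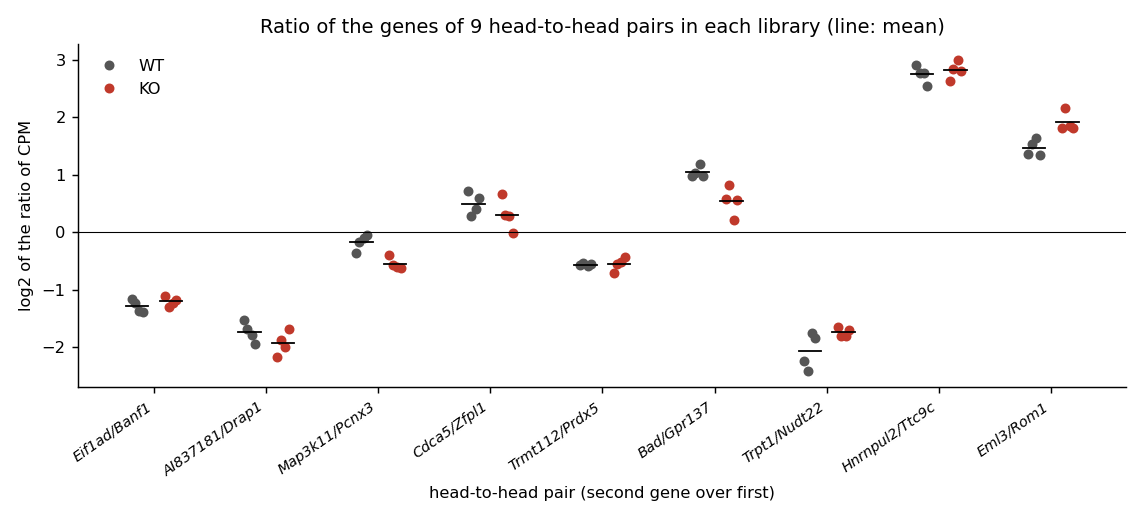
Log2 ratio of the CPM of the second to the first gene of 9 head-to-head pairs in each library (points, WT gray and KO red, 4 each; lines mark means). WT and KO do not overlap for Map3k11/Pcnx3, Bad/Gpr137 and Eml3/Rom1, and overlap for the other 6 pairs.

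RefSeq promoters of GRCm38.p6 were matched by symbol to 136 of the 194 genes, 115 of them tested. In the 250 bases before the start, the GC box GGGCGG was found on either strand in 64.3% of the 115 tested genes and in 32.9% of all 27025 promoters of the same length. The 115 genes passed the count filter, whereas all promoters include those of genes that did not. No share over tested genes elsewhere was computed, so these differences cannot be assigned to the region. By class, it was in 7 of 10 promoters of genes above the shift, 44 of 72 of genes not separated and 23 of 33 of genes below. CCAAT was in 41.7% of the tested genes and 34.5% of all promoters. The median GC content was 60.4% for the tested genes and 52% for all promoters, and was 63.8%, 60.2% and 60% for genes above, not separated from and below the shift.

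The cells had been stimulated with a cAMP analog, and the palindrome TGACGTCA is the full cAMP response element bound by CREB. It was found in 2 of the 115 (1.74%), Rce1 and Fau, and in 1.62% of all promoters. CAAGGTCA, the site of the Leydig cell factor SF-1, was in 3 (2.61%), Aldh3b1, Plcb3 and Uqcc3, and in 1.31% of all promoters. The windows of 30 bases around these matches are printed with the match in capitals, each read along its gene. A match is a description of letters, not a measured binding site.

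Rce1: gcgccgccgccTGACGTCAcctacgccgtc
Fau: tcgcgctgcagTGACGTCAcacgcagcagg
Aldh3b1: tggcctggagcCAAGGTCAggcactaggcc
Plcb3: cggcTGACCTTGgcatgtcttgagcggctc
Uqcc3: ggaaattgaacCAAGGTCAtttgggagagc

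The Rce1 window lies at chr19:4625651-4625680 (minus strand), with the match beginning 24 bases before the RefSeq start, and the Fau window at chr19:6057891-6057920 (plus strand), 45 bases before it. The table places the start of Fau 59 bases upstream of the RefSeq start. The windows of Aldh3b1, Plcb3 and Uqcc3 lie at chr19:3929801-3929830, chr19:6970035-6970064 and chr19:8881053-8881082, all on the minus strand. Both genes with TGACGTCA rose and were not separated from the shift: Rce1, a protease that trims prenylated proteins, from 24.7 ± 1.14 to 37.9 ± 2.64 CPM (centred 0.10, edgeR adjusted p = 0.242), and Fau with a centred value of -0.10 (adjusted p = 0.191). The 3 genes with CAAGGTCA stood in 3 different classes: Uqcc3 above the shift, Aldh3b1 not separated and Plcb3 below.

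The 45 genes that were not tested had at most 24 counts in any library and at most 0.731 CPM on average, and 8 had no count in any library. They include genes of specialized tissues, such as Chrm1, a muscarinic receptor, Npas4, an activity-dependent factor of neurons, Catsper1, a channel of sperm, Scgb1a1, a secretoglobin of the airway, and Actn3, an actinin of fast muscle. Some untested genes overlap another gene of the table, such as Fam89b with Sssca1 and Wdr74 with Gm45736, where reads may not have been assigned. Nothing about the direction of the 45 genes can be read from these counts. The promoters of 21 untested genes with a RefSeq match had a median of 2.8 CpG per 100 bases, against 6.8 in the tested genes and 2.4 in all promoters.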

How the data were processed

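RNA was measured in 4 WT and 4 KO libraries, grouped by sample titles and column names. The authors deposited 1 table of unnormalized read counts, with a row for each gene. The submitters' processing notes name HISAT2 2.0.5 and featureCounts 1.5.0-p3 and list the builds GRCh37, hg19 and mm39 with no role. Of 186 of the 194 genes matched by symbol to RefSeq GRCm38.p6, 185 had a start or end within 1000 bases of it, so positions were read as GRCm38. The sources used here do not give the strand setting or how multiply matching reads were counted.

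Using edgeR 4.0.16 (R 4.3.3), low counts were filtered with filterByExpr (count of 10, total of 15), libraries were scaled by TMM, and KO was tested against WT by the quasi-likelihood F test without other covariates. The 13185 genes left were adjusted together by Benjamini-Hochberg and called below 0.05. In the centred fit, the median log2 fold change of all tested genes of chromosome 19 was an offset for its genes in KO libraries. SEs and intervals are from the same fits. The centred fit was also run on simulated counts with a uniform shift of chromosome 19 and few other changed genes. That setting is simpler than these data, so it checks the code only. Head-to-head ratios were compared by exact permutation tests (scipy 1.17.1). Figures used matplotlib 3.10.9.

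Genes were named by rule: the 8 largest centred values in each direction among called genes (at least 5 CPM, groups not overlapping), up to 8 lower genes, the 6 most abundant, the 5 nearest the shift, up to 3 called genes and the most abundant gene of each of 13 role lists, and the genes next to the start limit. Others complete a count, pair or motif match and were chosen with their values known. One gene that the rule names is not reported here. The genes and lists were chosen with earlier results of these data known. The alternatives were DESeq2 1.42.0, its size factors in edgeR, TMM without chromosomes 3 and 19, no TMM, other count filters, limma 3.58.1 voom, a replicate block, each library left out, protein-coding genes only, a fold limit, glmTreat, other centring values, and leaving out overlapping genes, the last added after the data had been examined. Of the 8 libraries, same-numbered WT and KO libraries did not deviate together (r of -0.234, 0.0459, 0.0304 and -0.202), so they were not paired.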

Additional observations from a re-analysis of the deposited data

Results flagged for a closer look

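Among 134 groups of 4 values (59 named genes and 8 measures per library, WT and KO), 3 had 1 library far from the other 3, fewer than the 1 in 20 that chance gives. Kmt5b in WT replicate 4 had 25.9 CPM against 31.0 to 31.6 in the other WT libraries (gap of 0.894 of the range). Ssh3 in WT replicate 3 had 9.84 CPM against 11.4 to 11.6 (0.881). 2700081O15Rik in KO replicate 4 had 25.2 CPM against 23.5 to 23.7 (0.862), still far above all WT libraries.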

How the results depend on the processing

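No result reversed. The counts of 119 higher, 10 lower, 13 above and 42 below the shift stayed within 1.5 times under all other settings but these. With an absolute log2 fold change above 0.5, 56 were higher and 6 lower. By glmTreat against 0.5, 18 were higher and 3 lower. Centred on the 149 genes themselves, 23 were above, while the 33 below stayed within 1.5 times. Centring on the distal protein-coding genes, also within 1.5 times, gave 10 above and 52 below. The median of chromosome 19 was 0.502 on total counts without TMM, 0.492 with no filter beyond 1 count, 0.503 with at least 10 counts in every library, and 0.527 with protein-coding genes only. Leaving out 1 library at a time gave 113 to 118 higher, 7 to 11 lower, 10 to 14 above, 37 to 45 below, and medians of 0.439 to 0.474 for the 149 genes and 0.512 to 0.525 for chromosome 19. The replicate number as a block gave 113 higher, 7 lower, 11 above and 35 below; 2 of 4 numbers correlated best with their own, so the libraries share only a number. Of 2232 recomputed calls for the named genes, 57 were lost and 18 gained. By DESeq2, the adjusted p of Rom1 in KO against WT was 0.0588.

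Genes near the thresholds (Dpp3, Klc2, Ssh3, Ltbp3, Stip1, Yif1a, Rom1, Ccdc85b, Ahnak, Rbm14, Tesmin, and those gained in some settings: Fau, Pitpnm1, Bscl2, Kmt5b, Ccs, Aldh3b1, Tut1, Ganab, Best1) are the least certain. Depth limits genes under about 1 CPM, and overlapping or near-identical genes are limited by the unstated strand and multiple-match settings.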
